A study of Mus musculus with 2 samples.

Results

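The genes of the CD3 chains and of the first steps of T cell receptor signalling are 9 of the 27998 genes counted in immune cells of NOD mouse islets: Cd3d, Cd3e, Cd3g, Cd247, Lck, Zap70, Lat, Cd5 and Cd6. They were taken by symbol, and all 9 were found. Their transcripts were followed through 5 classes of cells, each defined by a few other genes. CD4 T cells had a Cd4 UMI (a unique molecular identifier, which counts 1 captured transcript) and none of Cd8a, Cd8b1, Cd79a or Siglech. CD8 T cells had at least 2 UMIs of Cd8a and Cd8b1 together and none of Cd4. Foxp3 cells had a Foxp3 UMI, a gene whose product directs regulatory T cell identity. Ncr1 cells had a UMI of Ncr1, which encodes the activating receptor NKp46 of natural killer (NK) cells and related innate lymphocytes, and none of Cd4, Cd8a or Cd8b1. B cells had at least 2 UMIs of Cd79a, which encodes a chain of the B cell receptor complex, and served as the background for T cell transcripts.

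Both groups were leukocytes carrying CD45.1, sorted by flow cytometry from pancreatic islets of female NOD/ShiLtJ mice, an inbred strain that develops autoimmune diabetes without any treatment. One group was 7 weeks old and the other 12 weeks old, with 1 droplet library (10x Genomics Chromium, 3' chemistry) for each. The sources used here do not give the number of mice pooled. With 1 library per age no test between ages is possible, and every interval below is a 95% interval for counting error only, not for the spread between mice or libraries.

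The T cell receptor has no signalling tail of its own. It is carried to the surface by the CD3 gamma, delta and epsilon chains and by the zeta chain CD247, whose tails hold paired tyrosines called immunoreceptor tyrosine-based activation motifs (ITAMs). The kinase LCK phosphorylates these tyrosines, ZAP70 docks on them and phosphorylates the membrane adaptor LAT, and CD5 and CD6 are surface proteins that tune the signal. NK cells use the zeta chain and a related adaptor, the Fc receptor gamma chain FCER1G, to signal from NKp46 and CD16.

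The ITAM coding stretches are shown because they are what the 4 chain genes share. A search of the reference coding sequences for a tyrosine pair of the ITAM form found 1 in Cd3d, 1 in Cd3e, 1 in Cd3g and 3 in Cd247. The sequences are those of the GRCm38 reference in GENCODE release 21 for mouse, not of the NOD strain, read 5′ to 3′ along the transcript, with the codons of the paired tyrosines in capitals.
Cd3d: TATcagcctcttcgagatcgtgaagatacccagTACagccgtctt
Cd3e: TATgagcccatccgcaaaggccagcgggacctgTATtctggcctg
Cd3g: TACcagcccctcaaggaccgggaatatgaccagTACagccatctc
Cd247, motif 1: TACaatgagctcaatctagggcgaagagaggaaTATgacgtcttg
Cd247, motif 2: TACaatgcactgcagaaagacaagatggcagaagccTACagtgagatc
Cd247, motif 3: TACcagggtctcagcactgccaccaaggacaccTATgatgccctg
Every motif is split over a pair of neighbouring coding exons. The Cd3d motif lies in exons 4 and 5 at chr9:44986095-44986311 on the plus strand, the Cd3e motif in exons 7 and 8 at chr9:44999549-45000440 on the minus strand, and the Cd3g motif in exons 5 and 6 at chr9:44970735-44971268 on the minus strand. The Cd247 motifs, on the plus strand, lie in exons 3 and 4 at chr1:165856451-165857454, in exons 5 and 6 at chr1:165858473-165859260 and in exons 7 and 8 at chr1:165859819-165861042.

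The 3 CD3 genes are neighbours on chromosome 9 (GRCm38), with Cd3g at 44969572 to 44980431 on the minus strand, Cd3d at 44981786 to 44987339 on the plus strand and Cd3e at 44998740 to 45009627 on the minus strand. Cd3g and Cd3d start back to back, 1354 bases apart. Cd247 lies on chromosome 1 at 165788681 to 165877277, where the counted genes Pou2f1 and Gm37469 overlap it on the opposite strand. The sources used here do not say if counting used the strand, so Cd247 is the member whose counts are least certain. Lck is on chromosome 4 at 129548344 to 129573641, Zap70 on chromosome 1 at 36761798 to 36782818 and Lat on chromosome 7 at 126363824 to 126369570. Cd5, at 10717116 to 10739002, and Cd6, at 10789341 to 10830058, lie on chromosome 19.

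After filtering, 1099 cells at 7 weeks and 2782 at 12 weeks remained, with medians of 5643 and 4949.5 UMIs. The classes held 326 and 771 CD4 T cells, 176 and 482 CD8 T cells, 87 and 109 Foxp3 cells, 68 and 65 Ncr1 cells and 182 and 689 B cells at 7 and 12 weeks. The libraries shared 2 barcodes. The gates were not exclusive. Of the Foxp3 cells 42 and 51 were also CD4 T cells by the rule, and a Cd4 UMI was found in 65 and 71 of them. Of the Ncr1 cells 3 and 4 also fitted the B cell gate, and of the CD4 T cells 1 and 11 also fitted a macrophage gate (at least 3 UMIs of C1qa, C1qb and C1qc). The CD8 T gate, unlike the CD4 T gate, did not exclude Cd79a or Siglech. Of the CD8 T cells 1 and 8 also fitted the B cell gate, and 12 and 46 held a Cd79a UMI. A plasmacytoid dendritic cell gate (at least 2 UMIs of Siglech) was fitted by 2 and 15 CD8 T cells. Levels are given as UMIs of a gene in each 1e+06 UMIs of the class (CPM). The summed level of the NK marker list was 6429.9 and 6478 CPM in Ncr1 cells, against 164 and 137 in B cells and 789.7 and 1130.3 in CD8 T cells. The list holds Ncr1, which set the gate, and the adaptor genes Tyrobp and Fcer1g. Its sum was also high in plasmacytoid dendritic cells, at 4843 and 7122 CPM, and in macrophages, at 4726 and 4150 CPM. The sum is therefore not particular to Ncr1 cells.

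The CD3 chains were high in the T cell classes, lower in Ncr1 cells and far lower in B cells at both ages. Cd3d, encoding CD3 delta, stood at 1058 (1018 to 1099) CPM in CD4 T cells, 928 (881 to 976) in CD8 T cells, 918 (857 to 981) in Foxp3 cells, 501 (436 to 574) in Ncr1 cells and 105 (87.7 to 124) in B cells at 7 weeks. At 12 weeks the Cd3d levels were 1125, 1075, 1055, 698 and 68.9 CPM, and the intervals of the 3 T cell classes overlapped. Ncr1 cells held a Cd3d level between those of T cells and of B cells in both libraries, with no overlap on either side.

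Cd3g, encoding CD3 gamma, gave the same order in both libraries when summed over each class, with no overlap between neighbours. It stood at 1499 and 1589 CPM in CD4 T cells, 1294 and 1443 in Foxp3 cells, 1129 and 1274 in CD8 T cells, 629 and 724 in Ncr1 cells and 99.2 and 60.4 in B cells at 7 and 12 weeks. The order of CD4 T and Foxp3 cells depended on the weighting of cells. As a mean over cells Cd3g stood at 1660 and 1770 CPM in CD4 T cells and 1520 and 1870 in Foxp3 cells. Among CD4 T cells, those with a Foxp3 UMI had a log2 ratio of 0.13 and 0.25 over those without. Cd3e, encoding CD3 epsilon, stood at 685 (653 to 719) CPM in CD4 T cells, 624 (574 to 677) in Foxp3 cells, 541 (505 to 578) in CD8 T cells, 202 (162 to 250.1) in Ncr1 cells and 66.4 (53.1 to 82.1) in B cells at 7 weeks. At 12 weeks Cd3e stood at 558, 564, 489, 244 and 34.6 CPM in the same order of classes. The intervals of CD4 T and Foxp3 cells overlapped at both ages, while CD8 T cells lay below CD4 T cells.

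Cd247, encoding the zeta chain, was highest in CD4 T cells, with no overlap with any other class. It stood at 339.9 (317 to 364) and 337 (320.1 to 354) CPM in CD4 T cells, against 186 (159 to 216) and 206 (178 to 236) in Foxp3 cells and 162 (143 to 183) and 185 (171 to 199) in CD8 T cells. The intervals of Foxp3 and CD8 T cells overlapped. In Ncr1 cells Cd247 stood at 70.6 (47.7 to 101) and 99.3 (69.2 to 138) CPM, and in B cells at 33.6 (24.3 to 45.3) and 13.6 (10.4 to 17.6) CPM.

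**Figure D1:**
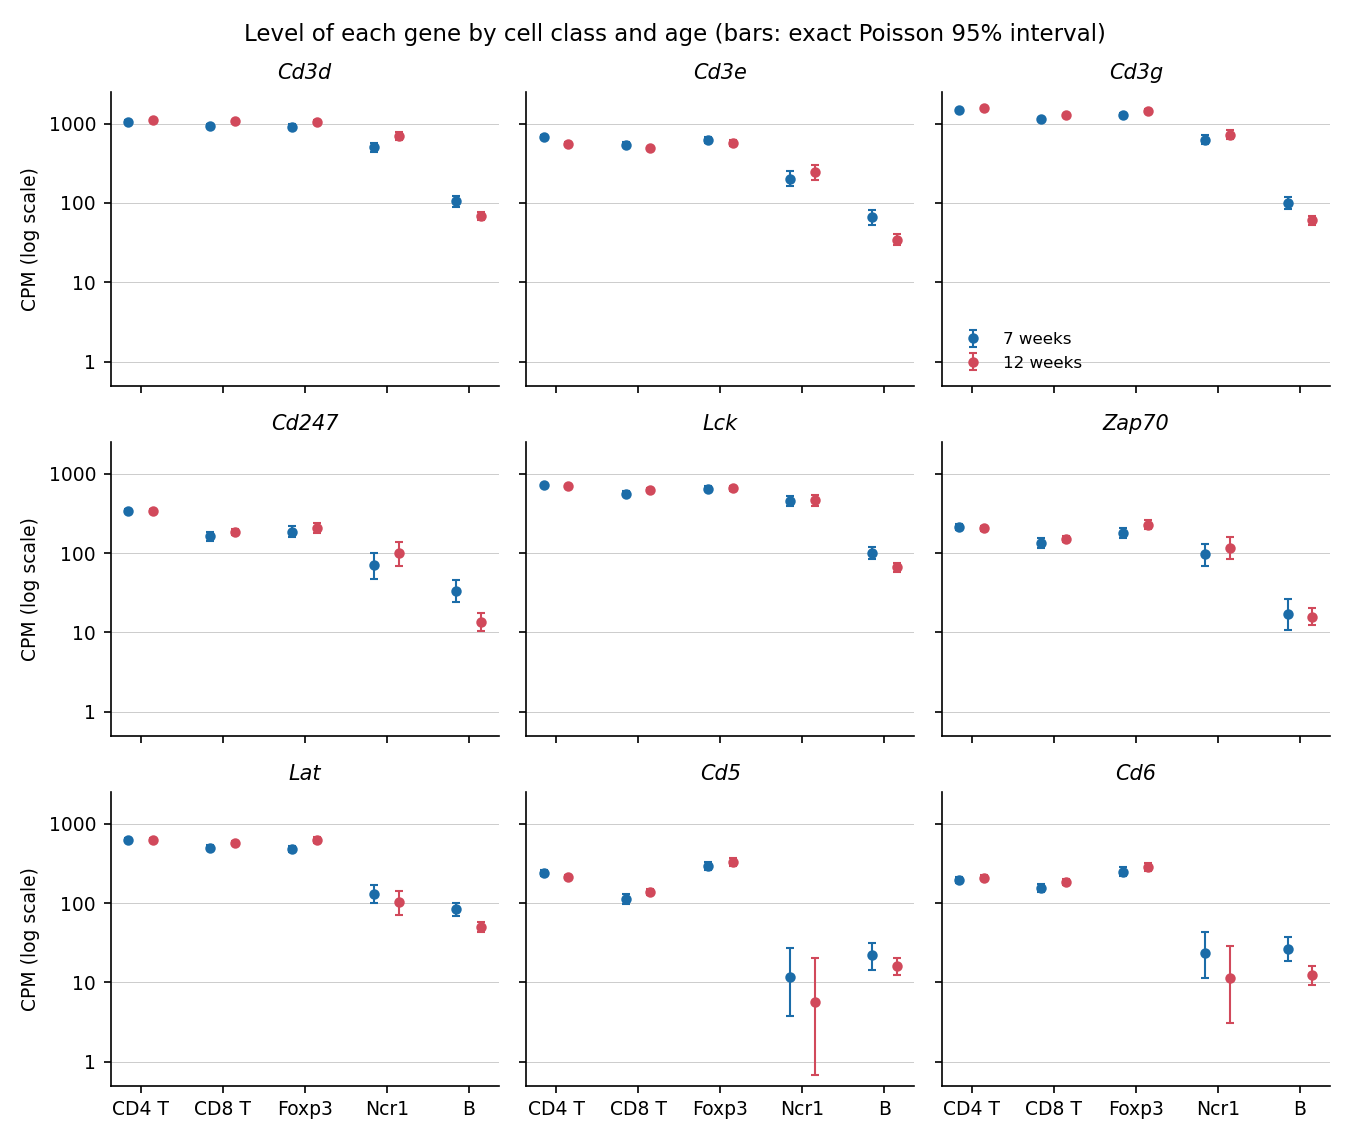
Level of each of the 9 genes in CPM on a log axis, by cell class (horizontal axis) at 7 weeks and 12 weeks (the 2 colours), with exact Poisson 95% intervals as bars. The CD3 chains and Lck in Ncr1 cells lie between the T cell classes and B cells at both ages, while the intervals of Cd5 and Cd6 in Ncr1 cells overlap those of B cells.

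Lck, encoding the kinase that phosphorylates the ITAMs, was nearer to its T cell level in Ncr1 cells than the chains were. It stood at 716 and 705 CPM in CD4 T cells, 649.7 and 652 in Foxp3 cells, 561 and 627 in CD8 T cells, 452 (390.4 to 521) and 459.7 (392 to 536) in Ncr1 cells and 100.02 and 65.8 in B cells. Its Ncr1 over CD8 T ratio was 0.806 and 0.733, against 0.541 and 0.649 for Cd3d and 0.374 and 0.499 for Cd3e. Ncr1 cells lay below all 3 T cell classes and above B cells. Zap70, encoding the kinase that docks on the phosphorylated ITAMs, stood at 213 and 204 CPM in CD4 T cells, 179.6 and 227 in Foxp3 cells and 134 and 150.2 in CD8 T cells. In Ncr1 cells Zap70 stood at 96.5 (69.3 to 131) and 116 (83.5 to 158) CPM, with intervals that overlapped those of CD8 T cells, and in B cells at 17.2 and 15.8 CPM.

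Lat, encoding the membrane adaptor, was far lower in Ncr1 cells than in T cells. It stood at 630.1 and 631 CPM in CD4 T cells, 498 and 573 in CD8 T cells and 479 and 619 in Foxp3 cells. In Ncr1 cells Lat stood at 132 (99.6 to 171) and 102 (71.5 to 141) CPM, against 83.6 (68.5 to 101) and 50.3 (43.8 to 57.5) in B cells. The intervals of Ncr1 and B cells overlapped at 7 weeks and not at 12 weeks.

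Cd5 and Cd6, encoding related scavenger receptor family proteins, were highest in Foxp3 cells, and in Ncr1 cells their intervals overlapped those of B cells. Cd5 stood at 293 and 327 CPM in Foxp3 cells, 239 and 215 in CD4 T cells, 114 and 137 in CD8 T cells, 21.9 and 15.99 in B cells and 11.8 and 5.68 in Ncr1 cells. The Cd5 intervals of Foxp3 (259 to 329) and CD4 T cells (220.1 to 259) touched at 7 weeks and were apart at 12 weeks. Cd6 stood at 249.5 and 286 CPM in Foxp3 cells, 198 and 209 in CD4 T cells, 156 and 185 in CD8 T cells, 26.6 and 12.5 in B cells and 23.5 and 11.4 in Ncr1 cells. The Cd6 intervals of CD4 T and CD8 T cells overlapped at 12 weeks. Ncr1 cells held 5 and 2 Cd5 UMIs and 10 and 4 Cd6 UMIs in all.

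Which of the genes Ncr1 cells carried above the B cell level was read by 1 rule: a ratio of at least 2, with the lower bound of its interval above 1, in both libraries. By this rule 377 of 7439 genes with at least 50 UMIs in the 2 classes, 5.07%, were higher in Ncr1 cells, and 6 of the 9 genes were among them: Cd3d, Cd3e, Cd3g, Cd247, Lck and Zap70. At 7 weeks the ratios over B cells were 4.79 (3.84 to 5.99) for Cd3d, 3.05 (2.23 to 4.16) for Cd3e, 6.33 (5.11 to 7.89) for Cd3g and 2.10 (1.27 to 3.43) for Cd247. At 12 weeks the ratios were 10.1 (8.52 to 12.05), 7.06 (5.35 to 9.28), 11.97 (10.03 to 14.3) and 7.28 (4.65 to 11.3) for the same genes. All 4 chains were above B cells in both libraries, with Cd247 nearest to the limit at 7 weeks, where it rested on 30 UMIs in Ncr1 cells. Lck had ratios of 4.52 and 6.98 and Zap70 of 5.62 and 7.39.

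Lat, Cd5 and Cd6 did not meet the rule. The ratio of Lat was 1.58 (1.12 to 2.20) and 2.03 (1.38 to 2.90), above 1 at both ages but under 2 at 7 weeks. Cd5 had ratios of 0.538 (0.162 to 1.41) and 0.355 (0.0421 to 1.33), and Cd6 of 0.886 (0.391 to 1.83) and 0.911 (0.239 to 2.47). For Cd5 and Cd6 these intervals include 1, and their direction at 7 weeks depends on which B cells and which background class are counted, as given next.

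The B cell level itself came from few cells. At least 4 UMIs of Cd3d, Cd3e and Cd3g together were found in 8 of 182 and 16 of 689 B cells. No UMI of these 3 genes was found in 115 and 492 B cells. Of those, 9 and 22 held a Cd5 or Cd6 UMI, 10 and 64 Lat, 22 and 92 Lck and 5 and 9 Cd247. Whether such UMIs were free RNA or transcripts of the B cells themselves was not tested, so the B cell level may be more than background. The 5 B cells with the most Cd3d UMIs held 65.7% of the Cd3d UMIs of the class at 7 weeks and 33.8% at 12 weeks. With cells in more than 1 gate left out, the log2 ratio of Ncr1 over B cells was 3.33 and 3.95 for Cd3d, in place of 2.26 and 3.34, and 1.95 and 1.73 for Lat, in place of 0.66 and 1.02. For Cd6 it was 1.07 and 0.50 in place of -0.17 and -0.13, and for Cd5 at 7 weeks 0.97 in place of -0.89, so both turned to above B cells at 7 weeks. In thinned cells Cd6 stood at 1.53 at 7 weeks. Lat met the rule's 2-fold limit, for a count of 7, with cells in 1 gate only, as a mean over cells, thinned, without cycling cells and without the top 5 cells. Cd247 did not meet it, for a count of 5, when mitochondrial, ribosomal protein, haemoglobin, acinar and endocrine genes were left out of the denominator. Plasmacytoid dendritic cells (at least 2 UMIs of Siglech) gave a higher background: at least 4 such CD3 UMIs were found in 10 of 31 and 5 of 55 of them. With them as background only Cd3d and Lck met the rule, and with macrophages the 6 genes named above met it. With macrophages the log2 ratio at 7 weeks was 0.59 for Cd5 and 1.59 for Cd6, where macrophages held 1 UMI of each gene. With plasmacytoid dendritic cells it was -1.61 for Cd6 at 7 weeks, and these cells held Cd5 at 60.0 CPM, above Ncr1 cells. At 12 weeks the log2 ratio of Cd6 was 2.82 with macrophages and 0.31 with plasmacytoid dendritic cells.

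Shares of cells with a UMI gave the same order of Ncr1 and B cells for the chains and Lck. With every cell thinned to 3500 UMIs, a Cd3d UMI was found in 54.7% (41.7 to 67.2) of Ncr1 cells and 14.8% (9.73 to 21.2) of B cells at 7 weeks, and in 67.8% (54.4 to 79.4) and 10.9% (8.61 to 13.6) at 12 weeks. A Cd3e UMI was found in 31.2% and 42.4% of Ncr1 cells and 9.88% and 5.77% of B cells, and an Lck UMI in 79.7% and 71.2% against 15.4% and 15.8%. A Cd5 UMI was found in 1.56% and 1.69% of thinned Ncr1 cells, against 2.47% and 4.21% of B cells. A Cd6 UMI was found in 9.38% of thinned Ncr1 cells at 7 weeks and in 0 of 59 at 12 weeks, against 4.32% and 3.28% of B cells. Thinning left out 4 and 6 Ncr1 cells and 20 and 48 B cells. Unthinned, a Cd3d UMI was found in 64.7 and 70.8% of Ncr1 cells and 21.4 and 17.4% of B cells, at median depths of 5859.5 and 4845 UMIs in Ncr1 cells and 5306.5 and 4705 in B cells.

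Ncr1 cells were not uniform in their CD3 content. No UMI of Cd3d, Cd3e or Cd3g was found in 14 and 12 of them, while 39 and 43 held at least 4 (57.4% and 66.2%). At this limit 2 and 1 cells held 3 UMIs and 3 and 2 held 4. In CD8 T cells 95.5% and 94.6% held at least 4, and in B cells 4.40% and 2.32%. The median Ncr1 cell held 5.5 and 8 such UMIs, and the highest 29 and 33. All 3 CD3 genes were detected together in 23 and 30 Ncr1 cells. The limit of 4 UMIs was chosen after seeing the data, and the cells on either side of it form a range, not cell types. T cell receptor genes were not analysed here, so whether a CD3-bearing Ncr1 cell carried a rearranged receptor was not tested.

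**Figure D2:**
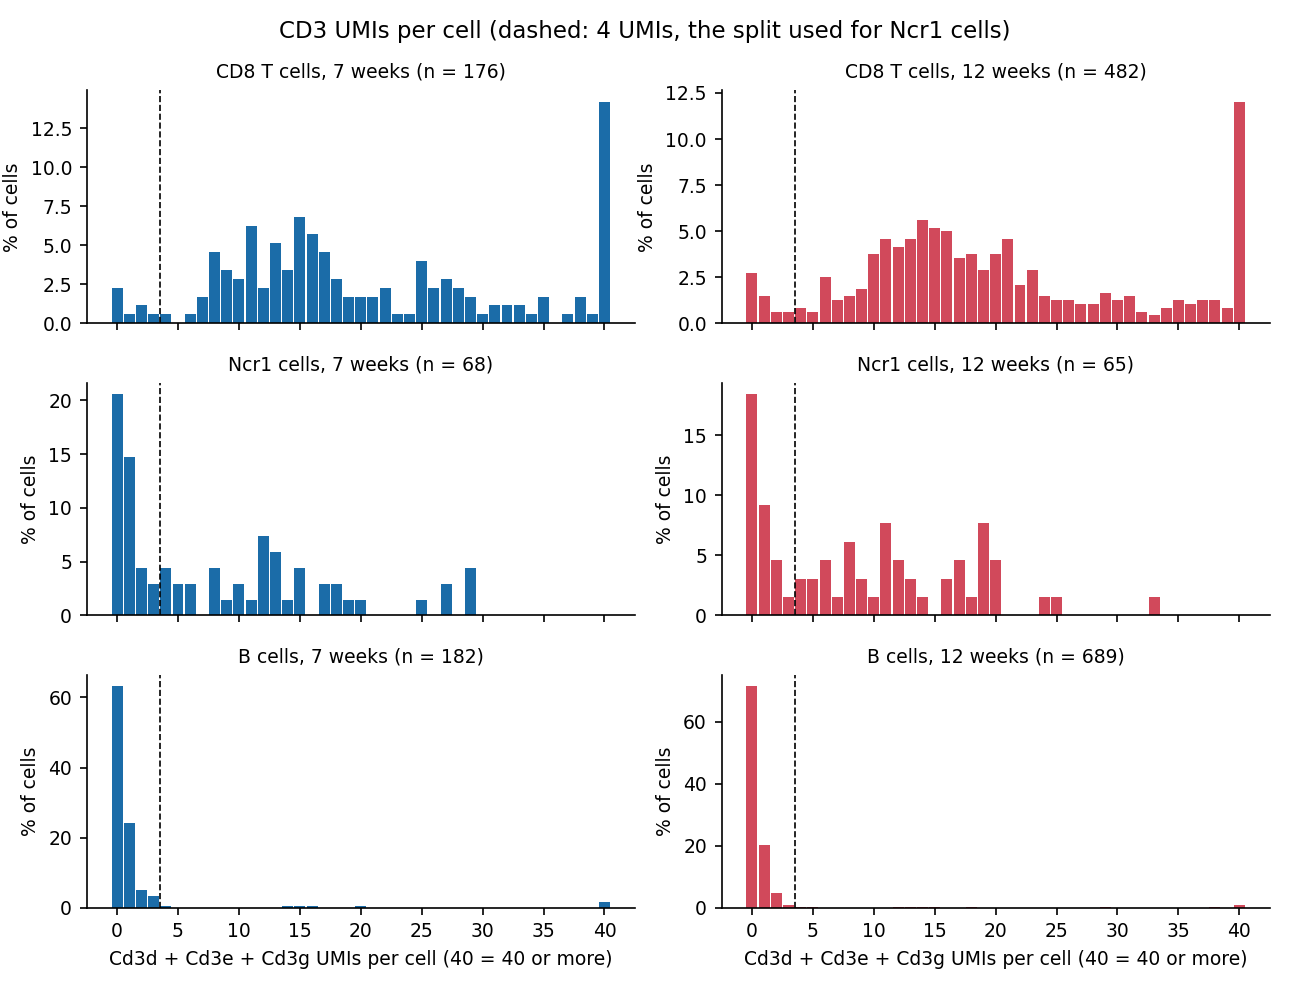
Summed Cd3d, Cd3e and Cd3g UMIs per cell (horizontal axis, 40 standing for 40 or more) against the percent of cells, in separate panels for the cell classes at 7 and 12 weeks. The dashed line marks 4 UMIs. Ncr1 cells spread from 0 to 29 UMIs at 7 weeks and from 0 to 33 at 12 weeks, while most B cells held 0.

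The Ncr1 cells with at least 4 CD3 UMIs held the kinases at levels near those of CD8 T cells and Lat, Cd5, Cd6 and Cd247 at lower levels. None of these genes set the limit. Lck stood at 509 and 568 CPM in them, a ratio to CD8 T cells of 0.908 (0.746 to 1.10) and 0.905 (0.748 to 1.09), and Zap70 had a ratio of 0.850 (0.552 to 1.26) and 0.960 (0.646 to 1.38). These intervals include 1. Lat was lower, at 175 and 154 against 498 and 573 CPM, with ratios of 0.352 (0.252 to 0.478) and 0.268 (0.184 to 0.378). Cd5 had ratios of 0.179 and 0.0340, from 5 and 1 UMIs, and Cd6 of 0.210 and 0.101, from 8 and 4 UMIs. Cd247 had ratios of 0.579 (0.360 to 0.888) and 0.655 (0.425 to 0.969).

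In the same cells Fcer1g, encoding the other ITAM adaptor, stood at 864 and 1200.4 CPM, 15.4 (11.97 to 19.97) and 22.3 (18.5 to 27.0) times the CD8 T level. Their median depth was 6211 and 4910 UMIs, against 6240 and 5413 in CD8 T cells. Without the cells that held a Cd79a UMI, 36 and 40 remained and the ratio of Lat was 0.346 and 0.269.

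The Ncr1 cells with fewer than 4 CD3 UMIs (29 and 22 cells) also held the kinases above the B cell level. Lck stood at 374 and 291 CPM in them, 3.74 (2.74 to 5.06) and 4.42 (3.09 to 6.17) times the B cell level, and Zap70 at 72.5 and 72.7 CPM, 4.22 (1.95 to 8.75) and 4.62 (2.12 to 9.03) times. Lat had ratios to B cells of 0.867 (0.447 to 1.55) and 0.434 (0.0887 to 1.28), which were not distinguishable from 1 at this depth. Cd247 had ratios of 1.16 (0.441 to 2.61) and 4.80 (2.09 to 9.76), above 1 at 12 weeks alone.

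Gzma, encoding the cytotoxic protease granzyme A, and Klrb1c, encoding a lectin-like NK receptor, were lower in the Ncr1 cells with more CD3. Both belong to the NK marker list and were picked from it after seeing their values. Gzma stood at 558 and 809.6 CPM in them against 3174 and 2699 in those with less, and Klrb1c had ratios of 0.204 (0.104 to 0.376) and 0.320 (0.177 to 0.560). The summed NK marker list stood at 4603 and 5588 CPM in the cells with more CD3 and 8931 and 7870.5 in those with less. Without Gzma the other 10 markers were closer, at 4045 and 4778 against 5757 and 5172 CPM. Summed B cell markers stood at 374 and 1418 CPM in the Ncr1 cells with less CD3 and at 44.8 and 41.9 CPM in the others. Without cells that held a Cd79a UMI 25 and 14 of the former remained, and Lck was 3.88 and 5.41 times the B cell level.

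Scaled to Cd3d in the same cells, Lat, Cd5 and Cd6 were lower in Ncr1 cells than in T cells and also than in B cells. Per 100 Cd3d UMIs, Lat gave 26.3 (19.2 to 35.4) and 14.6 (10.02 to 20.8) UMIs in Ncr1 cells, 79.9 (61.3 to 104) and 73.0 (60.9 to 87.4) in B cells, 59.6 and 56.0 in CD4 T cells and 53.7 and 53.2 in CD8 T cells. Cd5 gave 2.35 (0.754 to 5.56) and 0.813 (0.0979 to 2.97) in Ncr1 cells, 20.9 and 23.2 in B cells, 22.6 and 19.1 in CD4 T cells and 12.3 and 12.7 in CD8 T cells. Cd6 gave 4.69 (2.22 to 8.80) and 1.63 (0.440 to 4.22) in Ncr1 cells, 25.4 and 18.1 in B cells, 18.7 and 18.6 in CD4 T cells and 16.8 and 17.2 in CD8 T cells. For these 3 genes the interval of Ncr1 cells lay below those of CD4 T, CD8 T, Foxp3 and B cells in both libraries.

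The chains were nearer to each other on this scale. Cd3g gave 125 and 104 UMIs per 100 Cd3d UMIs in Ncr1 cells, against 122 and 118 in CD8 T cells, with overlapping intervals. Cd3e gave 40.4 (31.1 to 52.1) and 35.0 (27.0 to 44.9) in Ncr1 cells, against 58.3 (53.5 to 63.5) and 45.5 (43.0 to 48.1) in CD8 T cells, with intervals apart at 7 weeks and overlapping at 12 weeks. Fcer1g gave 198 and 163 in Ncr1 cells, 6.04 and 5 in CD8 T cells and 31.3 and 61.1 in B cells.

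**Figure D3:**
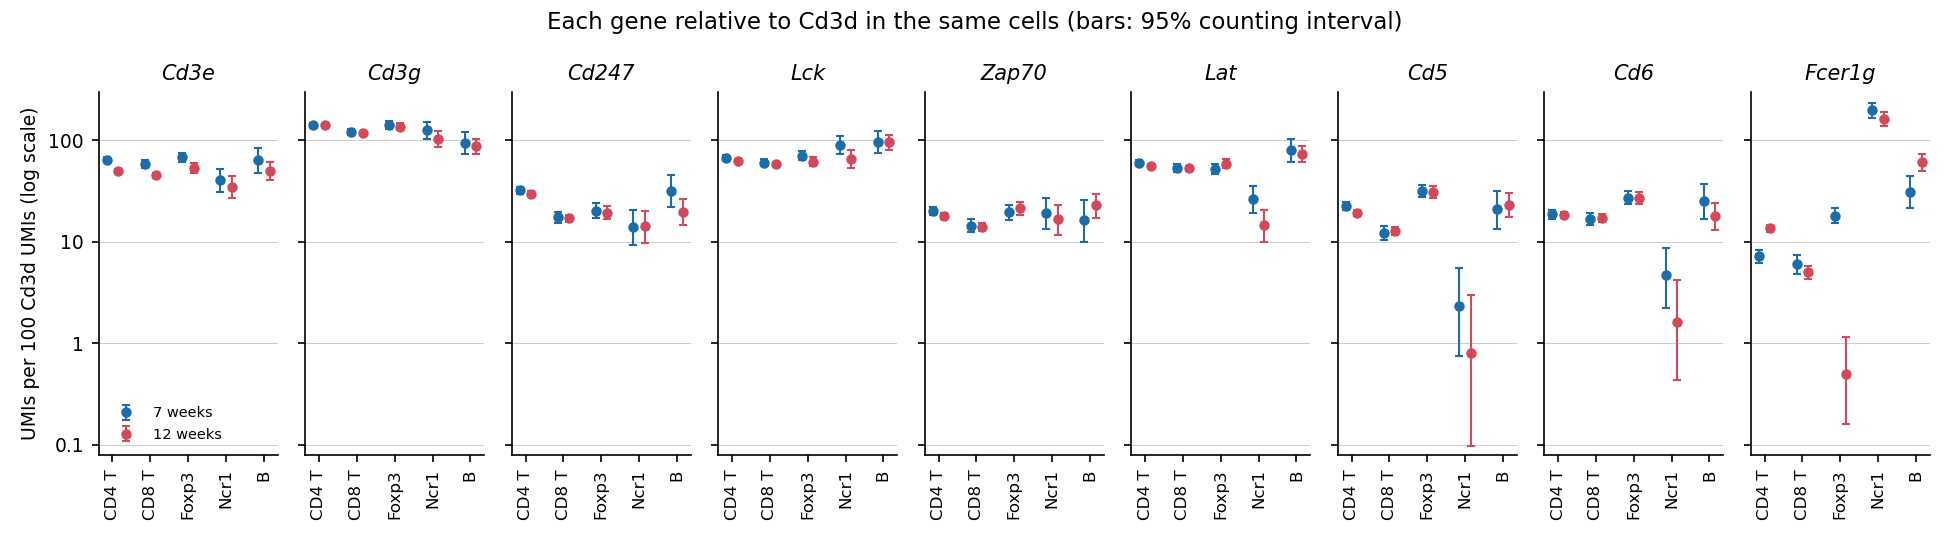
UMIs of each gene per 100 Cd3d UMIs of the same cells on a log axis, by class at 7 weeks and 12 weeks (the 2 colours), with 95% counting intervals as bars. Lat, Cd5 and Cd6 in Ncr1 cells lie below the other classes at both ages.

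The adaptors through which NK receptors signal were high in Ncr1 cells. Fcer1g stood at 991 and 1135 CPM, Tyrobp, encoding the adaptor DAP12, at 937 and 854, and Hcst, encoding DAP10, at 457 and 431. In B cells Fcer1g stood at 32.8 and 42.1 CPM, Tyrobp at 46.9 and 46.8 and Hcst at 44.5 and 35.5. Klrk1, encoding the receptor NKG2D, stood at 572 and 602 CPM in Ncr1 cells, and Ncr1, which set the gate, at 864 and 931 CPM. Fcgr3, encoding CD16, was thinly counted, with 13 and 8 UMIs, as was Sh2d1b1, encoding the adaptor EAT-2, with 12 and 9 UMIs. Syk, encoding a kinase related to ZAP70, stood at 47.1 and 85.1 CPM in Ncr1 cells and 234 and 234 in B cells. Plcg2, encoding a phospholipase of B cell receptor signalling, stood at 33.0 and 17.0 CPM in Ncr1 cells and 69.5 and 85.1 in B cells, so both genes were lower in Ncr1 cells.

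The 12 over 7 week ratios of the 9 genes in T cells and Ncr1 cells were set against a limit of 1.5-fold. Past a ratio of 1.5 in either direction were 0 of 9 in CD4 T cells, where 13.2% of all genes with at least 50 UMIs passed it, 0 of 9 in CD8 T cells (12.9% of all genes) and 0 of 9 in Foxp3 cells (23.4%). In Ncr1 cells 0 of the 7 genes with at least 50 UMIs passed it (15.0% of all genes), Cd5 and Cd6 being too thinly counted. Of these 7, Cd3d stood at 1.39 (1.15 to 1.68) and Cd247 at 1.41 (0.839 to 2.37). With gates 1 UMI stricter the log2 ratio of Cd3d in Ncr1 cells was 0.75 in place of 0.48, which is past 1.5-fold. With so few genes, counts of 0 lie near the shares of all genes. The median log2 ratio of the members was -0.01 in CD4 T, 0.19 in CD8 T, 0.16 in Foxp3 and 0.27 in Ncr1 cells. The medians of all genes were -0.01, 0.03, 0.07 and 0.06.

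In B cells 7 of the 9 genes passed this limit, all lower at 12 weeks, where 15.5% of all genes passed it in either direction. The median log2 ratio of the 9 genes in B cells was -0.72, against 0.05 for all genes. The summed 4 chains were at 304 and 178 CPM in B cells at 7 and 12 weeks, for a ratio of 0.584 (0.516 to 0.662). Without the 5 cells with the most chain UMIs in each library, the log2 ratio of the summed chains in B cells was -0.09 in place of -0.78. Without the 5 cells with the most UMIs of the gene, the log2 ratio in B cells was 0.17 for Cd3d and 0.05 for Lck, in place of -0.60 and -0.60, so the direction of both turned.

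The summed 4 chains stood at 3581 and 3609 CPM in CD4 T cells, with a 12 over 7 week ratio of 1.01 (0.982 to 1.03). The ratio was 1.10 (1.06 to 1.13) in CD8 T, 1.08 (1.03 to 1.14) in Foxp3 and 1.26 (1.12 to 1.41) in Ncr1 cells. In CD4 T and CD8 T cells Cd3e went the other way from Cd3d. Cd3e was lower at 12 weeks in CD4 T cells, with a ratio of 0.815 (0.766 to 0.867), and in CD8 T cells, at 0.904 (0.833 to 0.982), and stood at 0.905 (0.803 to 1.02) in Foxp3 cells. In Foxp3 cells its log2 ratio of -0.14 turned to 0.03 without cycling cells and 0.10 within the CD4 T gate. Cd3d had ratios of 1.06 (1.01 to 1.12), 1.16 (1.09 to 1.23) and 1.15 (1.05 to 1.26) in the same classes, and Cd3g of 1.06, 1.13 and 1.12. In thinned CD4 T cells the log2 ratio of Cd3g was -0.01, in place of 0.08.

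The share of Cd3e among the UMIs of the 4 chains does not depend on the class total. At 7 and 12 weeks it was 19.1% (18.3 to 19.97) and 15.5% (14.9 to 16.02) in CD4 T cells, 19.6% (18.4 to 20.8) and 16.2% (15.5 to 16.9) in CD8 T cells and 20.6% (19.2 to 22.2) and 17.3% (15.96 to 18.6) in Foxp3 cells. The share was lower at 12 weeks in these 3 classes, with no overlap of intervals, and Foxp3 and CD4 T cells share members. In Ncr1 cells the share of Cd3e was 14.4% (11.7 to 17.5) and 13.8% (11.2 to 16.8), with overlapping intervals. The share of Cd3e was also lower at 12 weeks in classes outside the T cells, again with overlapping intervals. It was 21.9% and 19.5% in B cells, 23.2% and 17.3% in plasmacytoid dendritic cells and 22.2% and 10.2% in macrophages. The macrophage values rest on 12 and 5 Cd3e UMIs. Whether a lower share at 12 weeks was particular to T cells cannot be told from these values. The share of Cd247 differed between classes and little between ages, at 9.49% and 9.33% in CD4 T cells, 5.87% and 6.11% in CD8 T cells, 6.16% and 6.29% in Foxp3 cells and 5.03% and 5.63% in Ncr1 cells.

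Downstream of the chains, the intervals of 4 genes lay above 1 in CD8 T cells, and the share of all genes with such intervals was not computed. Lck had a ratio of 1.12 (1.03 to 1.21), Lat of 1.15 (1.06 to 1.25), Cd5 of 1.20 (1.01 to 1.43) and Cd6 of 1.19 (1.03 to 1.38), and Zap70 stood at 1.12 (0.955 to 1.32). The log2 ratio of Zap70 turned from 0.16 to -0.17 in thinned cells and -0.05 without cycling cells, and that of Cd6 was 0.03 without cycling cells, in place of 0.25. In CD4 T cells the interval included 1 for Lck (0.985), Zap70 (0.958), Lat (1.001) and Cd6 (1.06), and Cd5 stood at 0.900 (0.812 to 0.999), or 0.923 (0.833 to 1.02) without cells of other gates. In Foxp3 cells Lat had a ratio of 1.29 (1.14 to 1.46) and Zap70 of 1.27 (1.03 to 1.56). The log2 ratio of Lat in Foxp3 cells was 0.37, but 0.09 as a mean over cells, 0.14 within the CD4 T gate and 0.18 with stricter gates, and 5 cells held 31.5% of its UMIs at 12 weeks. Summed macrophage markers stood at 629 and 59.5 CPM in Foxp3 cells and 261 and 2984 in CD4 T cells at 7 and 12 weeks. Their part in the ratios of Foxp3 cells was not tested. In CD4 T cells the log2 ratio of the summed chains was 0.05 without cells of other gates, in place of 0.01.

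**Figure D4:**
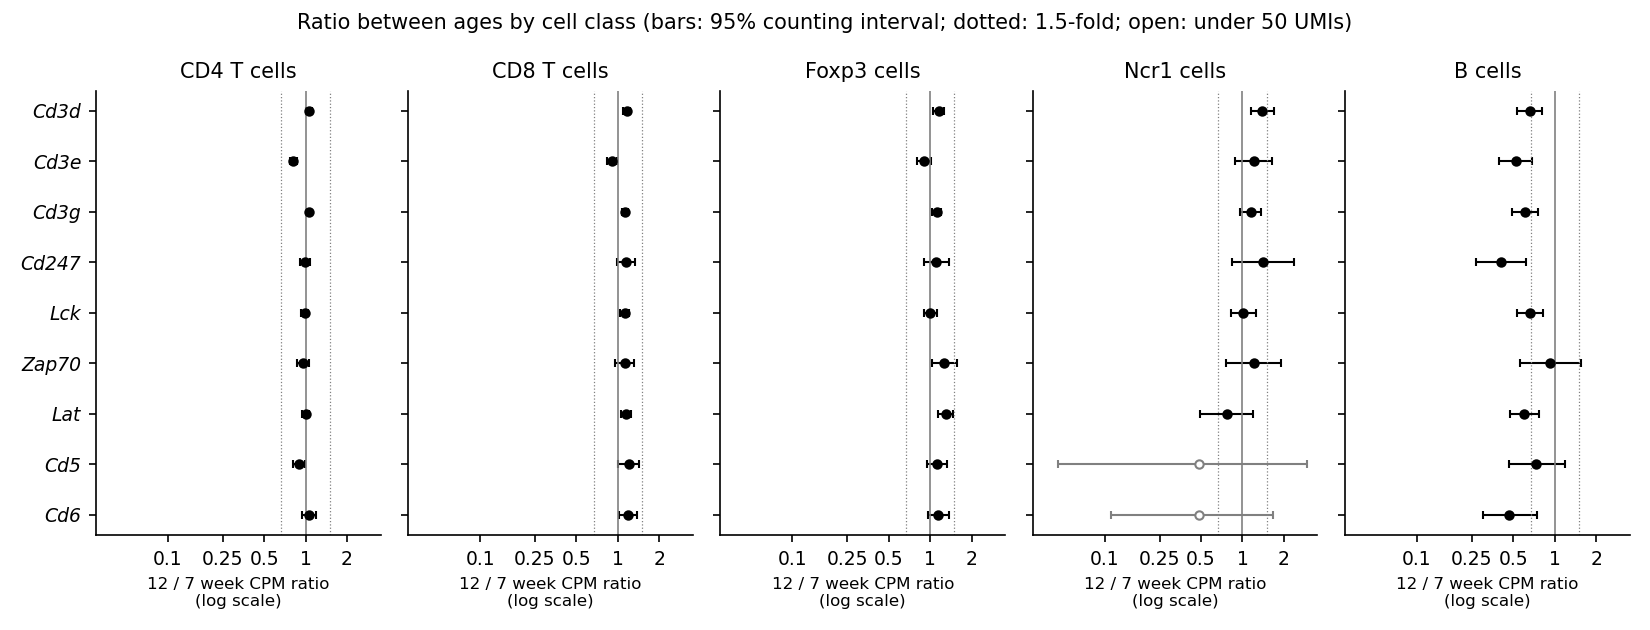
Ratio of the 12 week over the 7 week level of each gene in each class on a log axis, with 95% counting intervals as bars. Dotted lines mark 1.5-fold, and open points are genes under 50 UMIs. Cd3e lies to the left of Cd3d in every class shown, and 7 of 9 genes lie past the left line in B cells.

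The other genes of the pathway, 48 measured of a list of 49, are given next to the shares of all genes past 1.5-fold. Of the 46 with at least 50 UMIs in CD4 T cells 0 were higher and 2 lower by 1.5-fold (13.2% of all genes), and of 45 in CD8 T cells 2 were higher and 2 lower (12.9%). In Foxp3 cells 0 were higher and 5 lower of 39 (23.4%), and in Ncr1 cells 1 was higher and 1 lower of 27 (15.0%). Intervals lay above 1 for 5 and below it for 11 genes of the list in CD4 T cells, and above it for 12 and below it for 3 in CD8 T cells. The share of all genes with such intervals was not computed. The median log2 ratio of the list was -0.05 in CD4 T and 0.14 in CD8 T cells, against -0.01 and 0.03 for all genes. The most counted genes of the list were Ptprcap, encoding a protein bound to CD45, at 835 and 835 CPM in CD4 T cells and a ratio of 1.10 (1.03 to 1.18) in CD8 T cells, Ptprc, encoding CD45 itself, at ratios of 1.10 (1.03 to 1.18) and 1.13 (1.03 to 1.23), and Fyb, encoding the adaptor ADAP, at ratios of 1.35 (1.25 to 1.45) and 1.19 (1.07 to 1.32).

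Grb2, encoding an adaptor that binds phosphorylated LAT, was lower at 12 weeks in both classes. Its CD4 T levels were 73.2 and 47.8 CPM, a ratio of 0.653 (0.534 to 0.799), and its CD8 T levels 77.5 and 41.9 CPM, a ratio of 0.541 (0.424 to 0.691). Gata3, encoding a T cell transcription factor, had ratios of 0.649 (0.548 to 0.770) in CD4 T and 0.682 (0.483 to 0.970) in CD8 T cells. Tcf7, encoding the transcription factor TCF1, stood at 0.775 (0.697 to 0.861) in CD4 T cells and Cd226, encoding the costimulator DNAM-1, at 0.597 (0.445 to 0.802) in CD8 T cells. Higher in CD4 T cells were Themis, encoding a regulator of receptor signalling, at 1.46 (1.15 to 1.88), and Skap1, encoding a partner of ADAP, at 1.14 (1.05 to 1.23). Higher in CD8 T cells were Cd2, encoding an adhesion receptor, at 1.37 (1.23 to 1.53) and Gimap5 at 1.29 (1.09 to 1.53).

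Within each library, CD8 T cells held less of most of the genes than CD4 T cells. Cells that also fitted the B cell, plasmacytoid dendritic or macrophage gate were left out of this and the following splits. Cd247 had a CD8 over CD4 ratio of 0.486 (0.420 to 0.561) and 0.550 (0.502 to 0.603), Cd5 of 0.499 (0.419 to 0.591) and 0.643 (0.576 to 0.717) and Zap70 of 0.660 (0.560 to 0.776) and 0.743 (0.668 to 0.827). Cd3d was closest to 1, at 0.918 (0.860 to 0.979) and 0.967 (0.928 to 1.01). All 9 ratios were below 1 in both libraries. How many of all genes lay below 1 in this comparison was not computed, so the count does not set these genes apart. In cells thinned to 3500 UMIs all 9 were below 1 at 7 weeks, and at 12 weeks 2 were above it, Cd3d at 1.06 and Cd6 at 1.02.

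Among CD4 T cells those with a Foxp3 UMI (41 and 51 cells) held more Cd5 and Cd6 and less Cd247 than those without. Cd5 stood at 400.5 and 395 CPM against 212 and 208, ratios of 1.89 (1.56 to 2.28) and 1.90 (1.56 to 2.28). Cd6 had ratios of 1.98 (1.60 to 2.43) and 1.45 (1.17 to 1.78). Cd247 had ratios of 0.699 (0.558 to 0.868) and 0.619 (0.482 to 0.783), and of 0.667 and 0.830 in thinned cells. Lck stood at 1.22 (1.08 to 1.38) and 1.20 (1.06 to 1.35) and Lat at 0.808 (0.692 to 0.939) and 0.875 (0.751 to 1.01).

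T cells with a UMI of Pdcd1, which encodes the inhibitory receptor PD-1 and is induced by receptor signalling, held more of the proximal signalling genes than those without. In CD4 T cells (162 and 268 with, 163 and 492 without) Zap70 stood at 261 and 289.9 CPM against 147 and 149, ratios of 1.78 (1.46 to 2.16) and 1.95 (1.71 to 2.22). Cd5 had ratios of 1.71 (1.42 to 2.05) and 1.65 (1.45 to 1.87) and Cd3e of 1.45 (1.31 to 1.61) and 1.503 (1.39 to 1.63). Cd3d had the lowest ratio of the 9 genes at both ages, 1.12 (1.04 to 1.22) and 1.25 (1.18 to 1.32), and all 9 intervals lay above 1 in both libraries. The share of all genes with such intervals in this split was not computed, so the count does not set these genes apart.

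In CD8 T cells (77 and 169 with a Pdcd1 UMI, 95 and 290 without) Zap70 had ratios of 1.57 (1.16 to 2.12) and 1.80 (1.51 to 2.15), Cd5 of 1.44 (1.05 to 1.99) and 1.69 (1.41 to 2.04) and Cd6 of 1.32 (1.01 to 1.74) and 1.96 (1.67 to 2.30). Cd3d stood at 1.01 (0.907 to 1.12) and 1.09 (1.02 to 1.16) and Cd247 at 1.24 (0.953 to 1.62) and 1.08 (0.924 to 1.26). Splits by a UMI pick deeper cells: the median depth was 6928 and 5449 UMIs in CD4 T cells with Pdcd1 against 5290 and 4453 without, and 7794 and 7094 against 5685 and 5030.5 in CD8 T cells. In thinned cells Zap70 had ratios of 2.15 and 2.40 in CD4 T cells and 1.46 and 1.93 in CD8 T cells.

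CD8 T cells with at least 5 UMIs of Ccl5, encoding a chemokine of effector T cells (96 and 237 cells), held more Cd6 than those with fewer (76 and 222 cells), with ratios of 1.65 (1.23 to 2.23) and 2.16 (1.81 to 2.58). Cd5 had ratios of 1.69 (1.20 to 2.43) and 1.64 (1.35 to 2.002) and Cd3d of 1.12 (1.001 to 1.25) and 1.11 (1.04 to 1.18). These subset splits were chosen after seeing the data and are descriptions of cells that share a library.

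**Figure D5:**
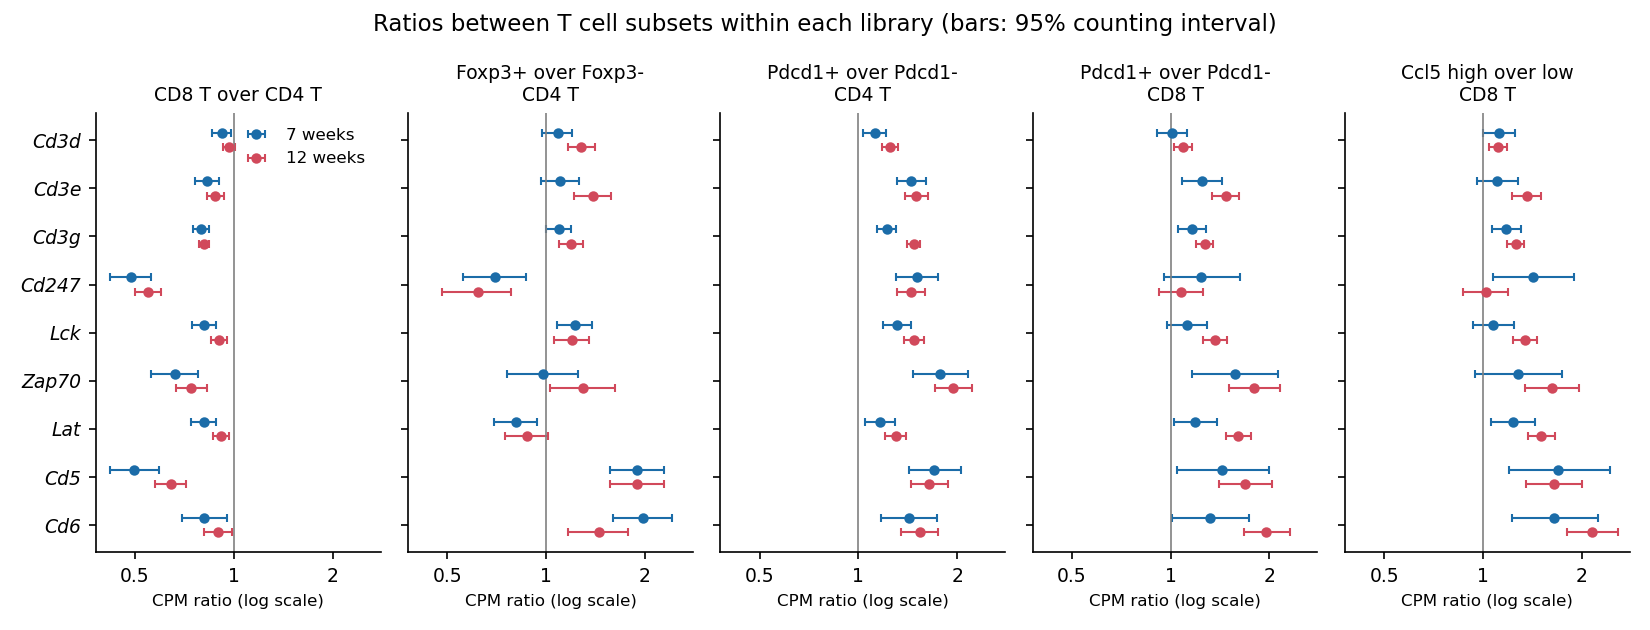
CPM ratios of the 9 genes between T cell subsets within the 7 week and 12 week libraries (the 2 colours) on a log axis, with 95% counting intervals as bars. Cd5 and Cd6 lie to the right of 1 and Cd247 to the left for Foxp3+ over Foxp3- CD4 T cells, and Zap70 and Cd5 lie further to the right than Cd3d for Pdcd1+ cells.

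The genes most like Cd3e, Cd247 and Cd5 were sought over 12 points (6 classes in both libraries) among 4298 genes, by Pearson correlation of log2(CPM + 10). The points share libraries, so r is a description. For Cd3e they were Cd3g (r = 0.987), Frmd8 (0.986), Thy1 (0.981), Cd3d (0.974) and Lck (0.974). For Cd247 they were Cd28 (0.976), Camk4 (0.975), Frmd8 (0.965), Cd3e (0.964) and Zap70 (0.964). For Cd5 they were Nrn1 (0.971), Tox2 (0.966), Cd6 (0.964), Pdcd1 (0.952) and Zbtb1 (0.940).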

How the data were processed

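Immune cells of NOD islets were profiled in 1 library per age. Per the submitters' processing notes, Cell Ranger 1.3.1 and the build mm10 were used. The authors deposited whole-number UMI counts per gene and barcode, not normalized, 8701184 UMIs in 1113 barcodes at 7 weeks and 19288252 in 2812 at 12 weeks. The sources used here do not give the annotation or the cell calling. Levels come from 3' tags, so a level is compared between cells and not between genes.

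Barcodes with at least 200 genes and at most 10% mitochondrial UMIs were kept (4 and 8 removed). Scrublet (scanpy 1.11.5, 2 simulated doublets per barcode) called 0.180% of barcodes at 7 weeks, under the limit of 0.5%, so the 10 highest scores, the number a loading rate of 0.8% for each 1000 barcodes gives, were removed, and 22 barcodes by its threshold at 12 weeks. UMIs were summed per class and library and divided by the class total (CPM). Sums carry exact Poisson intervals, ratios exact conditional binomial and shares Clopper-Pearson intervals, at 95%. The ratio intervals were run on simulated Poisson counts, the model that they assume. That run cannot show how they hold where the UMIs of a gene gather in few cells. No test was run. The 9 genes, the gates and the gene lists were chosen with earlier results of these data known. Named are all 9 members, the NK adaptor list, the 3 most counted and the 3 pathway genes furthest from 1 on either side, by the bound of the interval nearest to 1, in CD4 T and CD8 T cells, and the 5 genes most like Cd3e, Cd247 and Cd5. One pathway gene that this rule names is not reported here. Gzma and Klrb1c, and the splits of cells by Pdcd1, Ccl5, Foxp3 and CD3 content, were added after seeing the data. Alternatives covered doublets, gates, weighting of cells, thinning, cycling cells, leading cells, the denominator and the background class. Python 3.11.15, numpy 2.4.6, scipy 1.17.1, pandas 2.3.3, scikit-learn 1.9.0, biopython 1.88 and matplotlib 3.10.9 were used.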

Additional observations from a re-analysis of the deposited data

Results flagged for a closer look

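Cd5 differed in direction between T cell classes. Its 12 over 7 week ratio was 1.20 (1.01 to 1.43) in CD8 T cells and 0.900 (0.812 to 0.999) in CD4 T cells, with the intervals on opposite sides of 1 and the nearest bound of each close to it. Without cells that also fitted other gates the CD4 T ratio was 0.923 (0.833 to 1.02), which includes 1. The difference between the classes was not tested, since each age has 1 library. With 2 samples in all, no group was large enough for a check for a sample far from the others.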

How the results depend on the processing

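The log2 ratio between ages of the summed CD3 chains was 0.01 in CD4 T cells, and -0.05 thinned to 3500 UMIs, -0.03 without cycling cells, 0.09 without cells with myeloid transcripts and 0.05 without cells of other gates, an alternative chosen after seeing the data. In Foxp3 cells it was 0.11, and 0.21 as a mean over cells, 0.32 without cycling cells, 0.28 without the top 5 cells, 0.04 with median ratio scaling and 0.27 for Foxp3 cells within the CD4 T gate. In Ncr1 cells it was 0.33, and 0.55 with gates 1 UMI stricter. In CD8 T cells it was 0.13, and no alternative run moved it beyond its interval. The 6 genes above the B cell level at both ages became 2 with plasmacytoid dendritic cells as background, 5 with the other denominator (Cd247 lost) and 7 under 5 alternatives (Lat added). Log2 ratios whose interval was off 0 and that turned were those of Cd3g in CD4 T cells (-0.01 thinned), of Cd3d in B cells (0.02 with cells in 1 gate only, 0.09 without cycling cells, 0.17 without the top 5 cells), of Cd3g (0.08) and Lat (0.02) in B cells without cycling cells, of Lck in B cells (0.17 thinned, 0.05 without the top 5 cells) and of Lat in Ncr1 cells against plasmacytoid dendritic cells at 7 weeks (-0.75). The cause was not tested. With no minimum on UMIs the share of all genes past 1.5-fold between ages was 28.4% in CD4 T, 29.2% in CD8 T, 40.3% in Foxp3, 43.1% in Ncr1 and 32.1% in B cells. In all, 37 of 507 recomputed log2 ratios between ages and 17 of 200 of Ncr1 cells over B or other background cells lay on the other side of 0. Among those whose interval included 0, Cd5 in B cells turned from -0.45 to between 0.55 and 1.10 under 4 alternatives, Cd6 in Foxp3 cells from 0.20 to -0.11 within the CD4 T gate, and Ncr1 over B cells at 7 weeks reached 0.97 for Cd5 with cells in 1 gate only and 1.53 for Cd6 thinned. Leaving out Ncr1 cells with a receptor segment UMI was not run, since those genes were not analysed here. No paired analysis was possible because each age has 1 library and the labels give no replicate numbers.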
